A study of Rattus norvegicus with 61 samples.

Results

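The comparison described here set cerebellar libraries of the low exposure group against those of sham rats. It used 7 low libraries (animals 6, 7, 20, 35, 37, 51 and 53) and 6 sham libraries (animals 1, 3, 17, 18, 32 and 34), 13 of the 31 cerebellar and 61 total libraries of the series. The cerebellar labels name 8 low and 7 sham animals, while the series text gives a group size of 6, and which animals that size covers is not given in the sources used here. Low 22 was left out because it held almost no granule cell transcripts, and sham 48 because its ribosomal protein transcripts were raised. The libraries were thus chosen by measured values of the granule cell and ribosomal protein lists, and those lists are given as description only.

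Low rats carried a subcutaneous polymer implant loaded with 1% 4-OH-PCB52, and sham rats carried the same kind of implant with 0%. All were male Sprague-Dawley rats, implanted on postnatal day 28 and exposed for 28 days, and medium (5%) and high (10%) loadings were also studied. 4-OH-PCB52 is a hydroxylated metabolite of a polychlorinated biphenyl (PCB), and the series asks which genes it alters in the cerebellum and striatum of adolescent animals. RNA came from whole tissue punches, so a level is a mean over all cell types in the punch. A lower level can reflect fewer cells of a type or less RNA per cell, and the 2 cannot be told apart.

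The cerebellar cortex is built around Purkinje cells, its only output neurons, which are excited by the parallel fibres of the far more numerous granule cells and restrained by local interneurons. Bergmann glia, a type of astrocyte, wrap Purkinje cell dendrites and clear transmitter from their synapses. PCBs with chlorine in the ortho position are known to sensitise ryanodine receptors, which release calcium from the endoplasmic reticulum. Hydroxylated PCBs can bind transthyretin, a carrier of thyroid hormone, a hormone on which cerebellar development depends. PCBs that resemble dioxin act on the aryl hydrocarbon receptor and induce cytochrome P450 genes.

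Total counts ran from 5895826 to 9488258 reads in low libraries and from 5420458 to 9435159 in sham libraries. The deepest were low 6 and sham 1, and these also stood apart from the others in what they held. The leading principal component carried 55.7% of the variance, with low 6 at 85.1 and sham 1 at 42.9, low 35 at 20.6 and the other 10 libraries between -20.9 and -1.26. Each library's mean over the ribosomal protein list was 8.17 log2 CPM (scaled counts, with each library brought to the same total) in low 6 and 7.50 in low 35, against 6.87 to 6.94 in the other low libraries. It was 7.86 in sham 1, against 6.83 to 7.25 in the other sham libraries. Of the 2 libraries left out, low 22 stood at 8.33 and sham 48 at 9.52. The granule cell mean was lowest in low 6 among low libraries (8.12, others 8.78 to 9.13) and in sham 1 among sham libraries (8.61, others 8.96 to 9.06), while low 22 stood at 4.14 and sham 48 at 7.34. Results are therefore given with and without low 6 and sham 1 where they rest on them.

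**Figure D1:**
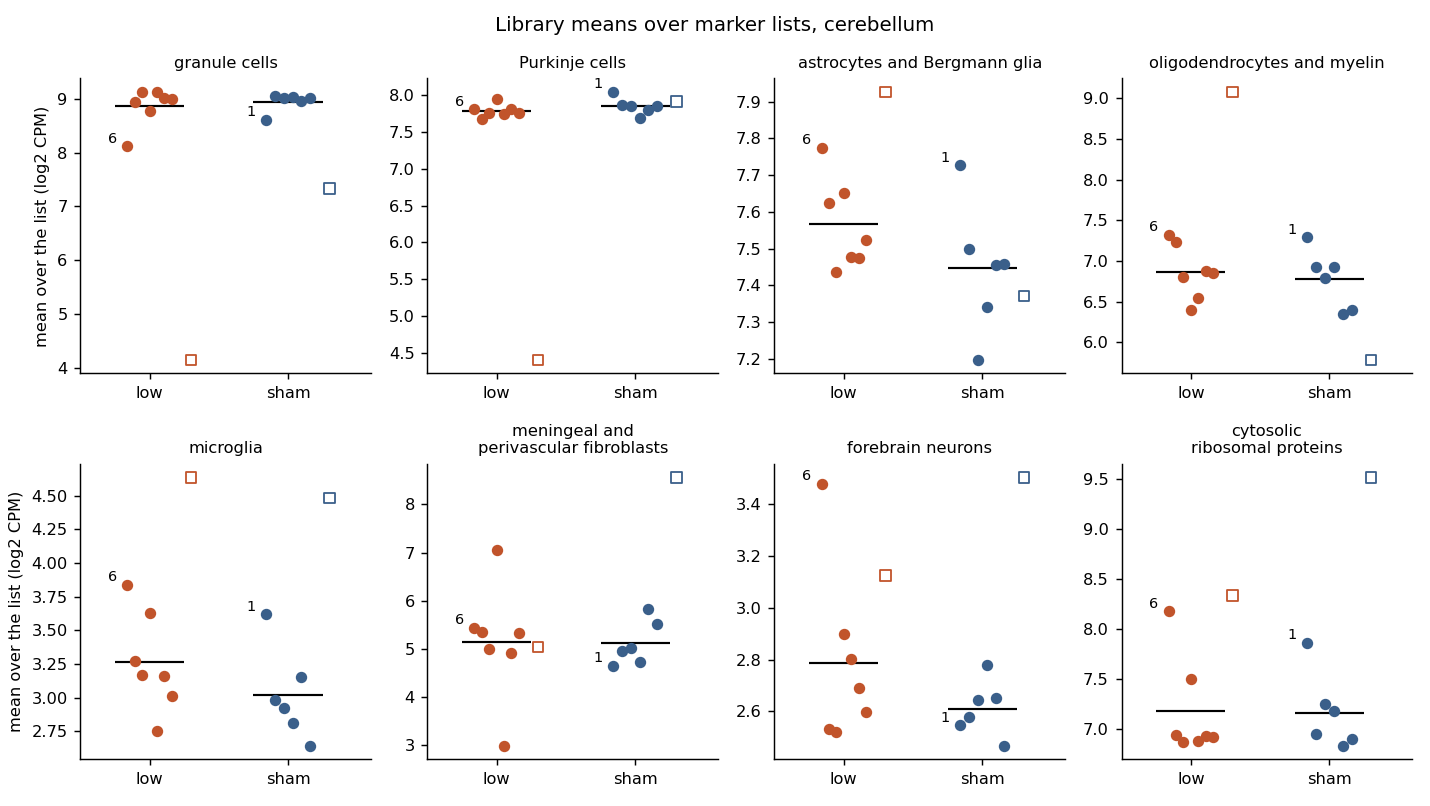
Mean log2 CPM over 8 marker lists in each cerebellar library, low left of sham. Filled points are the 7 low and 6 sham libraries compared, bars are group means, open squares are low 22 and sham 48, which were left out, and the numbers 6 and 1 mark low 6 and sham 1. Purkinje cell means spanned 7.68 to 7.94 in low and 7.68 to 8.04 in sham libraries, while ribosomal protein means reached 8.17 in low 6 and 7.86 in sham 1.

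The markers of the tissue were present at high levels in every library compared. Gabra6, the GABA receptor subunit of granule cells, had a median of 901 CPM in low libraries, with low 6 lowest at 666 CPM, and a median of 873 CPM in sham libraries, which ran from 760 to 968 CPM. Pcp2, a Purkinje cell protein, ran from 340 to 750 CPM (median 362) in low and from 335 to 664 CPM (median 385) in sham libraries. Its highest values were in low 6 and sham 1. Markers of the brainstem and deep nuclei averaged between -0.84 and 0.35 log2 CPM in the low libraries compared and between -0.79 and -0.40 in sham libraries, against 4.82 in low 22.

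No gene differed between low and sham cerebellum past the test. The edgeR quasi-likelihood test, with Benjamini-Hochberg adjustment over 11511 genes, called 0 genes higher (0%) and 0 lower (0%), and its smallest adjusted p was 1.00. At an unadjusted p under 0.05 there were 76 genes higher (0.66%) and 51 lower (0.443%), together 1.1% of the genes tested, where evenly spread p values would give 5%. DESeq2 also called 0 genes (121 higher and 93 lower at an unadjusted p under 0.05), and so did limma-voom with quality weights (409 and 339). Its smallest adjusted p was 0.524, shared by several genes, with Blnk first. The limma-voom weights were 0.07 for low 6, 0.15 for sham 1 and 0.41 for low 35, against 0.94 to 2.56 for the other libraries.

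The fold changes were small and their errors were set largely by a few libraries. Over all genes tested, 6461 of 11511 had a log2 fold change above 0 and the median was 0.02. The 95% confidence interval of the change lay within 1.5-fold in either direction for 69.2% of genes, within 2-fold for 93.2% and within 4-fold for 99.5%. The median standard error of a log2 fold change was 0.17 among the 13 libraries, 0.11 without low 6 and sham 1, 0.10 without low 35 as well, and 0.25 with low 22 and sham 48 put back. Without low 6 and sham 1 the test still called 0 genes, with 329 higher and 322 lower at an unadjusted p under 0.05 (5.68% of genes) and a smallest adjusted p of 0.869, for Dgkg. Dgkg encodes a diacylglycerol kinase, and in the comparison of all 13 libraries its mean was 203 CPM in low and 170 CPM in sham libraries (log2 fold change 0.25 ± 0.17).

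**Figure D2:**
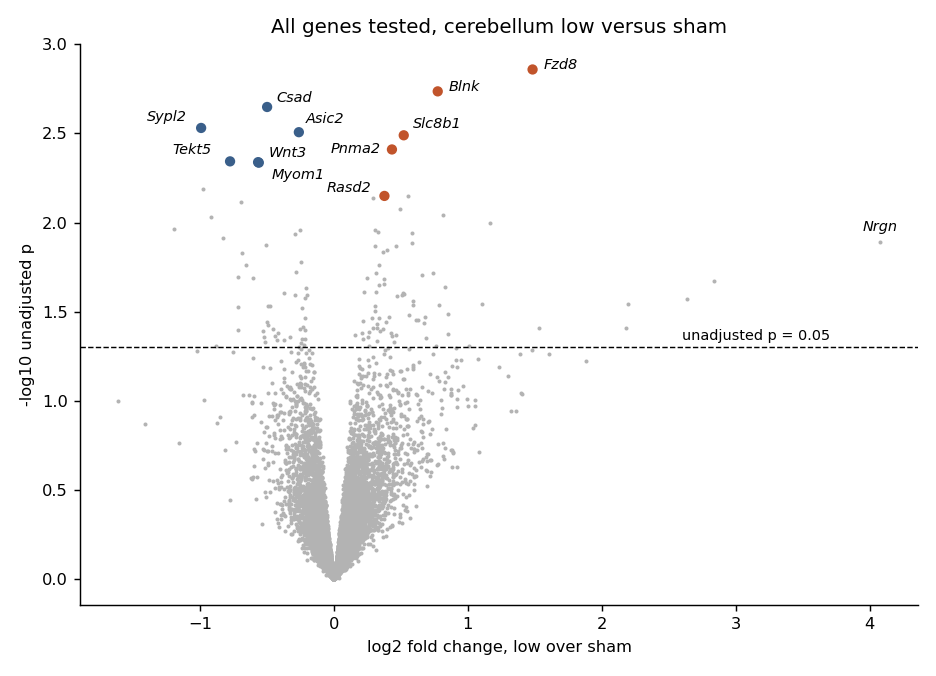
Each point is 1 of the 11511 genes tested in low versus sham cerebellum, with the log2 fold change (low over sham, n = 7 and 6) on the horizontal axis and -log10 of the unadjusted edgeR p on the vertical axis. The dashed line marks an unadjusted p of 0.05. Of the genes of smallest p, 5 with positive and 6 with negative changes are labelled, together with Nrgn, and no gene passed after adjustment.

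The genes described first are those of smallest p in each direction. All missed the threshold after adjustment (edgeR, adjusted p = 1.00), so their values describe these libraries. They are of mixed kinds, from a Wnt receptor and ion transporters to proteins of muscle and sperm flagella. Only 1 gene had every low library above every sham library (0.00869% of genes tested) and 1 had every low library below (0.00869%).

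Fzd8 (NCBI Gene ID 364754), a frizzled receptor for Wnt ligands, was the gene with every low library above sham. It stood at 9.28 CPM in low 6, 2.30 in low 7, 3.07 in low 20, 4.31 in low 35, 2.06 in low 37, 2.27 in low 51 and 4.59 in low 53. In sham libraries it stood at 1.61 CPM in sham 1, 1.81 in sham 3, 1.06 in sham 17, 1.28 in sham 18, 0.95 in sham 32 and 1.81 in sham 34. These are low levels, and low 6 stood well above the other low libraries. The log2 fold change was 1.48 ± 0.37 (SE), a fold of 2.80 with a 95% interval from 1.6 to 4.88, and it was 1.15 ± 0.30 without low 6 and sham 1. Wnt3 (24882), a Wnt ligand known from Purkinje cells in mice, lay the other way, from 8.58 to 16.1 CPM in low libraries (median 12.6) and from 13.8 to 27.2 CPM in sham libraries (median 17). Its log2 fold change was -0.57 ± 0.17, and the groups overlapped through low 51 and low 6, which stood above the lowest sham library.

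Blnk (499356), an adaptor of B-cell receptor signalling that is also made by microglia, stood between 3.03 and 5.68 CPM in low libraries (median 4.16) and between 1.82 and 3.53 CPM in sham libraries (median 2.35). Of the low libraries, only low 35 fell below the highest sham library, sham 1. The log2 fold change was 0.78 ± 0.20, with an interval of the fold from 1.27 to 2.32, and 0.83 ± 0.20 without low 6 and sham 1. Stk3, a kinase of the Hippo pathway, ran from 22.5 to 25.1 CPM in low and from 17.3 to 23.2 CPM in sham libraries (0.29 ± 0.09), with the low libraries close together.

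Slc8b1 (498185), the sodium-calcium exchanger of mitochondria, ran from 7.82 to 12.0 CPM in low libraries (median 9.57) and from 5.28 to 8.08 CPM in sham libraries (median 6.61). The groups overlapped only by low 51, which lay below sham 3 and sham 32, and the log2 fold change was 0.52 ± 0.15. Rasd2, the small GTPase Rhes, known for its high level in striatal neurons, ran from 70.9 to 121 CPM in low libraries and from 60.5 to 74.8 CPM in sham libraries (0.38 ± 0.12). Its 2 highest values were in low 6 and low 35. Pnma2, a paraneoplastic antigen of neurons, ran from 13.1 to 18 CPM in low and from 9.07 to 13.7 CPM in sham libraries (0.43 ± 0.13). Pcsk2, a protease that processes neuropeptide precursors, ran from 63.5 to 99.1 CPM in low and from 53.6 to 78.4 CPM in sham libraries (0.33 ± 0.11).

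Csad (60356), the decarboxylase that makes hypotaurine on the way to taurine, was among the most abundant of these genes. It ran from 113 to 153 CPM in low libraries (median 124) and from 132 to 244 CPM in sham libraries (median 178), with a log2 fold change of -0.50 ± 0.13. Low 37 and low 53 lay above the lowest sham library, sham 18, and the sham libraries spread more widely than the low ones. Asic2 (25364), an acid-sensing ion channel of neurons, averaged 57.6 ± 3.02 CPM in low libraries and 69.1 ± 5.34 CPM in sham libraries (SD, n = 7 and 6). The highest low library, low 6, and the lowest sham library, sham 18, both stood at 62.3 CPM, and the log2 fold change was -0.26 ± 0.07. Without low 6 and sham 1 it was -0.28 ± 0.07.

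The other lower genes described in full stood at a few CPM. Myom1 (316740), a protein of the muscle M band, ran from 3.19 to 5.59 CPM in low and from 6.22 to 7.29 CPM in sham libraries, and was the gene whose low libraries all lay below sham (-0.56 ± 0.17). Mybpc3, the cardiac myosin-binding protein, ran from 1.91 to 5.32 CPM in low and from 4.28 to 7.24 CPM in sham libraries (-0.69 ± 0.22). Sypl2, a synaptophysin relative of muscle triads, ran from 0.936 to 2.40 CPM in low and from 1.97 to 5.27 CPM in sham libraries (-0.99 ± 0.28). Tekt5, a filament protein of sperm flagella, ran from 2.23 to 5.46 CPM in low and from 4.44 to 8.65 CPM in sham libraries (-0.78 ± 0.23).

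The remaining leading genes had the same limits. Those with positive changes were Prr16 (0.49 ± 0.16), Neurl1b, a ubiquitin ligase relative of the Notch regulator neuralized (0.81 ± 0.27), Pi16 (1.17 ± 0.39) and Garem2, an adaptor of growth factor signalling (0.31 ± 0.11). Pi16 stood at 8.08 CPM in low 6, against 1.72 to 4.31 CPM in the other low libraries and 0.964 to 2.55 CPM in sham libraries, and its change was 0.67 ± 0.32 without low 6 and sham 1. Those with negative changes were Dus4l, a tRNA dihydrouridine synthase (-0.97 ± 0.31), Fam83f (-0.92 ± 0.31), Upk1a, a uroplakin (-1.20 ± 0.41), Cwc25, a splicing factor (-0.25 ± 0.09), and Susd2 (-0.29 ± 0.10). With low 22 and sham 48 put back, Pi16 stood at 0.28 ± 0.61. None of the 24 leading genes changed sign in any of the 25 alternative settings, although genes chosen for a small p are expected to keep their sign in fits of overlapping libraries.

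**Figure D3:**
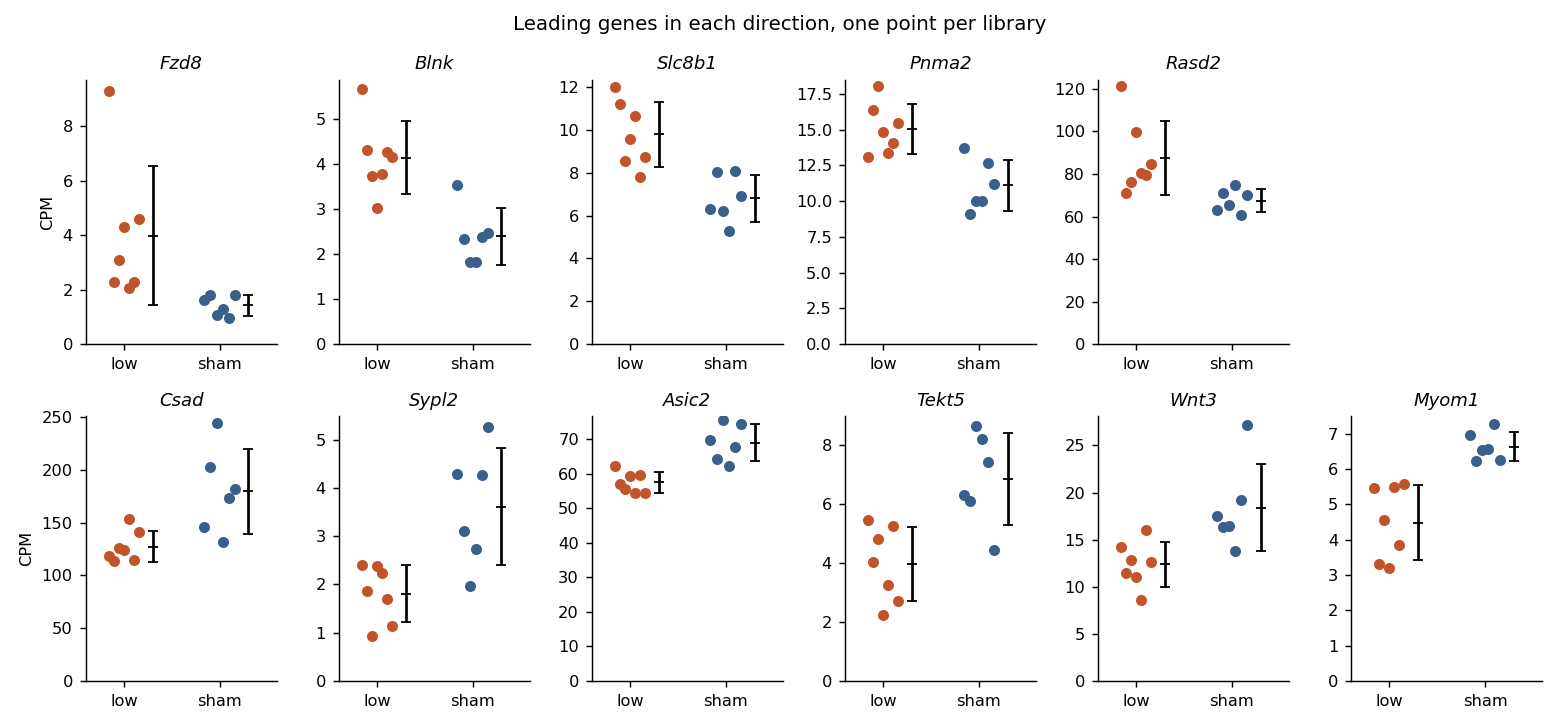
CPM of leading genes, 5 with positive changes in the upper row and 6 with negative changes in the lower row, 1 point per library, low (n = 7) left of sham (n = 6). Black bars give the mean ± SD of each group. Fzd8 and Myom1 are the genes whose groups did not overlap.

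Of the Purkinje cell genes none passed the test, and their intervals give the range of differences that these libraries allow. Calb1, a calcium buffer, averaged 823 ± 116 CPM in low and 824 ± 175 CPM in sham libraries (SD), and the 95% interval of its log2 fold change ran from -0.29 to 0.28. Car8, a carbonic anhydrase relative that binds the inositol trisphosphate receptor, stood at 0.05 (-0.25 to 0.36) and Pcp2 at 0.04 (-0.43 to 0.50). Granule cell transcripts took part in the choice of libraries, so their levels are given without a test. Cbln1, a secreted organiser of parallel fibre synapses, averaged 1385 ± 163 CPM in low and 1426 ± 169 CPM in sham libraries. Neurod1, a granule cell transcription factor, ran from 465 to 809 CPM in low and from 667 to 779 CPM in sham libraries. Cbln3, the partner of Cbln1, stood at 214 CPM in low 6 against 529 to 641 CPM in the other low libraries, and ran from 395 to 629 CPM in sham libraries. Pax6, a transcription factor of granule cells, ran from 79.9 to 129 CPM in low and from 105 to 131 CPM in sham libraries.

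Counted by list, 9 of 16 granule cell transcripts and 9 of 21 Purkinje cell transcripts lay above 0, with medians of 0.01 and -0.02, beside 56.1% and 0.02 over all genes. For the granule cell list these are a description, since it helped to choose the libraries. Among cerebellar interneuron transcripts 8 of 16 lay above 0 (median -0.02). Granule cell precursor and cell cycle transcripts had 3 of 12 above 0 (median -0.09), with the replication helicase subunit Mcm6 at -0.16 ± 0.12 and Barhl1, a granule lineage transcription factor, at 0.69 ± 0.57. Barhl1 ran from 3.44 to 40.9 CPM in low and from 6.49 to 17.6 CPM in sham libraries, and was highest in low 6, low 35 and low 37. No member of the Purkinje cell, interneuron and precursor lists was called. Without low 6 and sham 1, 13 of 21 Purkinje cell transcripts (median 0.05) and 5 of 12 precursor transcripts (median -0.07) lay above 0. The share over all genes was then 52.8% (median 0.01).

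Calcium store genes did not pass the test either, and of the ryanodine receptors, which PCBs are known to act on, only Ryr2 was tested. Ryr2 stood at 61.4 CPM in low 6 and 267 CPM in low 35, against 488 to 705 CPM in the other low libraries. It stood at 108 CPM in sham 1, against 457 to 600 CPM in the other sham libraries. The libraries with high ribosomal protein means were thus those with low Ryr2 in both groups. Its log2 fold change was -0.07 with an interval from -1.04 to 0.91, and -0.08 ± 0.19 without low 6 and sham 1. Itpr1, the inositol trisphosphate receptor abundant in Purkinje cells, stood at 0.01 (-0.45 to 0.48). Ryr1 and Ryr3 are not analysed here.

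Over the list of calcium store channels and pumps 17 of 26 members lay above 0, with a median of 0.03. Orai1, the plasma membrane channel opened when stores are empty, ran from 15.4 to 39.1 CPM in low libraries (median 20.1) and from 9.50 to 29.4 CPM in sham libraries (median 14.3). Low 6, low 35 and sham 1 held its 3 highest values, and its log2 fold change was 0.55 ± 0.27, or 0.64 ± 0.18 without low 6 and sham 1. With low 22 and sham 48 put back it turned to -0.06. Casq1, the calcium-binding protein calsequestrin, stood at -0.46 ± 0.26.

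No gene of thyroid hormone transport or response was called. Thra, the main thyroid hormone receptor of brain, stood at 0.03 with an interval from -0.17 to 0.23, and Thrb, the other receptor, at 0.24 (-0.07 to 0.55). Of 2 genes that thyroid hormone induces in cerebellum, Klf9 stood at 0.16 (-0.23 to 0.55) and Hr, the corepressor hairless, at -0.22 (-0.60 to 0.15). Over the list 12 of 22 members lay above 0 (median 0.03). Nrgn, neurogranin, a calmodulin-binding protein of forebrain neurons and a thyroid hormone target there, had the largest change of any gene tested, at 4.08 ± 1.43. Its level was 498 CPM in low 6, against 1.89 to 9.41 CPM in the other low libraries and 2.85 to 7.83 CPM in sham libraries. Without low 6 and sham 1 it stood at -0.04 ± 0.39.

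Of the 15 forebrain markers tested, 6 had their highest value of all 13 libraries in low 6. The share of all genes tested that did so was not worked out, so this count is a description only. Beside Nrgn, the 6 included the opioid precursor Penk (142 CPM) and the dopamine receptor Drd2 (12.6 CPM). The rest, by narrower margins, were the zinc transporter Slc30a3, the adenosine receptor Adora2a and Lamp5, a membrane protein of cortical neurons. Slc30a3 stood at 10.7 CPM in low 6, against at most 6.82 CPM in the other low and 9.87 CPM in the sham libraries. Adora2a stood at 10.2 CPM, against at most 7.33 and 8.78 CPM, and Lamp5 at 188 CPM, against at most 185 and 154 CPM. The other 9 were not highest there, among them the transcription factors Neurod2 (125 CPM) and Neurod6 (29.4 CPM), with 145 to 178 and 26.5 to 38.9 CPM in the other low libraries and 151 to 177 and 32.6 to 40.4 CPM in sham libraries. The mean of the forebrain list was 3.48 log2 CPM in low 6, against at most 2.90 in the other low and 2.78 in the sham libraries. Transthyretin, encoded by Ttr and made in brain by the choroid plexus, ran from 0 to 23.9 CPM in low libraries (median 2.29) and from 0.317 to 4.28 CPM in sham libraries (median 1.61). Its values above the sham range were in low 6, low 7 and low 35. Its log2 fold change was 2.20 ± 0.90 in edgeR and 0.31 ± 1.15 in limma-voom, which gave low 6 and low 35 small weights. Over the choroid plexus list, 5 of 7 tested members lay above 0 (median 0.55), with library means from -0.08 to 1.41 log2 CPM in low and from 0.30 to 0.65 in sham libraries. Otx2, another member of that list, lay the other way, with a log2 fold change of -0.97 ± 0.55. It ran from 0.515 to 25.3 CPM in low libraries (median 14.1) and from 13.6 to 54.8 CPM in sham libraries (median 20.0). The part of adjoining tissue in these values was not tested.

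Genes of xenobiotic and oxidative response did not pass the test. Cyp1b1, a target of the aryl hydrocarbon receptor, ran from 0.172 to 5.42 CPM in low and from 0.428 to 2.85 CPM in sham libraries, and its interval, from -0.87 to 1.86, includes changes of over 2-fold upward. Cyp1a1 had too few reads to test. Nqo1 and Hmox1, targets of the oxidative stress factor NRF2, stood at 0.14 (-0.39 to 0.67) and 0.10 (-0.28 to 0.49). Ephx1, the microsomal epoxide hydrolase, ran from 12.5 to 43.8 CPM in low libraries (median 15.6) and from 12.2 to 16 CPM in sham libraries (median 14.1). Its 2 values above the sham range were in low 35 and low 6, and without low 6, low 35 and sham 1 it stood at 0.00.

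By list, 18 of 24 xenobiotic transcripts (median 0.08) and 21 of 25 NRF2 and antioxidant transcripts (median 0.10) lay above 0. The NRF2 list had 18 of 25 above 0 without low 6 and sham 1 (median 0.07), and both medians turned to the other sign without low 6 alone. Chaperones of heat shock and the endoplasmic reticulum had 20 of 24 above 0 (median 0.05), led by the small heat shock protein Hspb1 (0.47 ± 0.32). Glucocorticoid response genes had 12 of 14 (median 0.13), with the stress-induced Ddit4 at 0.17 ± 0.13. Sterol synthesis genes had 20 of 22 above 0 (median 0.08), with Hmgcs1, the synthase at the start of the mevalonate pathway, at 0.18 ± 0.11. The 95% intervals of Hspb1, Ddit4 and Hmgcs1 all include 0.

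**Figure D4:**
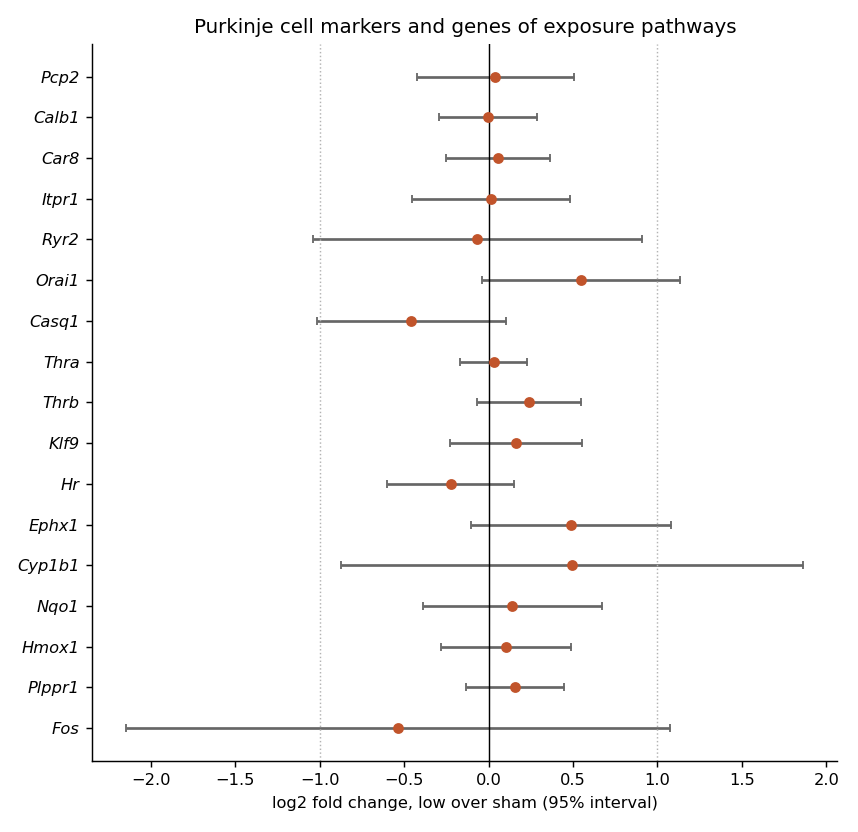
Log2 fold change (low over sham, n = 7 and 6) with its 95% confidence interval for Purkinje cell markers and genes of calcium stores, thyroid hormone, xenobiotic and oxidative response. The solid line marks no change and the dotted lines a 2-fold change. All intervals shown include 0, with that of Thra running from -0.17 to 0.23 and that of Ryr2 from -1.04 to 0.91.

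Most members of the glial lists lay above 0, by small amounts and with none called, beside 56.1% of all genes tested. Of 22 transcripts of astrocytes and Bergmann glia 19 lay above 0 (median 0.16), and 20 without low 6 and sham 1 (median 0.14). Fgfr3, a growth factor receptor of astrocytes, ran from 83.4 to 108 CPM in low libraries (median 85.8) and from 63.6 to 87.9 CPM in sham libraries (median 80.1), a log2 fold change of 0.21 ± 0.09. Clu, the chaperone clusterin, stood at 959 CPM in low 6 and 737 CPM in low 35, against 379 to 493 CPM in the other low and 386 to 563 CPM in the sham libraries (0.31 ± 0.21). Slc6a11, the GABA transporter of astrocytes, ran from 18 to 65.2 CPM in low and from 10.9 to 24.4 CPM in sham libraries (0.79 ± 0.32), with low 6 and low 7 above the sham range. Without low 6 and sham 1 it stood at 0.59 ± 0.22.

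Microglial transcripts lay above 0 for 16 of 17 members (median 0.23), and for 16 of 17 without low 6 and sham 1 (median 0.25). Tmem119, a microglial surface marker, ran from 3.09 to 11.8 CPM in low libraries (median 6.73) and from 2.73 to 9.64 CPM in sham libraries (median 3.26). Sham 1 held the highest sham value and the other 5 sham libraries lay between 2.73 and 3.46 CPM, while low 35 and low 6 led the low libraries. The log2 fold change was 0.76 ± 0.35, and 1.09 ± 0.27 without low 6 and sham 1. Trem2, a lipid-sensing receptor of microglia, stood at 0.62 ± 0.34, the complement gene C1qb at 0.44 ± 0.27 and Tlr4, the lipopolysaccharide receptor, at 0.61 ± 0.26. Library means of the microglial list overlapped, from 2.76 to 3.84 log2 CPM in low and from 2.64 to 3.62 in sham libraries. Interferon and inflammation genes as a list had 15 of 26 above 0 (median 0.07), with the antiviral gene Rsad2 at -0.54 ± 0.31.

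Oligodendrocyte and myelin transcripts lay above 0 for 20 of 24 members (median 0.14), and 22 of 24 without low 6 and sham 1 (median 0.17). Mal, a myelin protein, stood at 322 CPM in low 6 and 180 CPM in low 7, against 131 to 137 CPM in the other low libraries, and ran from 98.2 to 181 CPM in sham libraries (0.33 ± 0.23). Oligodendrocyte precursor transcripts had 8 of 11 above 0 (median 0.13), with the transcription factor Olig2 at 0.18 ± 0.19. The medians of the astrocyte, microglial, oligodendrocyte and precursor lists kept their sign in all 25 alternative settings. Those fits share most of their libraries, so a kept sign is expected, and other lists kept theirs too, such as sterol synthesis and glucocorticoid response. The library means of the glial lists overlapped between the groups. The oligodendrocyte mean ran from 6.4 to 7.32 log2 CPM in low and from 6.35 to 7.29 in sham libraries.

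Vessel and covering cells varied by library. Fibroblast transcripts of meninges and vessels lay above 0 for 16 of 18 members (median 0.43), but their library means ran from 2.99 in low 37 to 7.05 log2 CPM in low 35, against 4.65 to 5.82 in sham libraries. Without low 35 the median changed sign. Mgp, a matrix protein, stood at 44 CPM in low 35 and 35 CPM in low 6, against 6.86 to 16.4 CPM in the other low libraries and 6.37 to 19.1 CPM in sham libraries (0.79 ± 0.41). Endothelial transcripts had 10 of 18 above 0 (median 0.01) and mural cell transcripts 7 of 14 (median 0.06). Blood transcripts had 0 of 3 above 0 (median -1.16), with the haemoglobin gene Hbb at 35.5 CPM in sham 18, against 0.401 to 7.02 CPM in low and 0.158 to 4.39 CPM in the other sham libraries, and the median changed sign without sham 18.

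No synaptic or excitability gene was called. GABA and glycine genes had 17 of 24 above 0 (median 0.04) and glutamate receptor genes 7 of 24 (median -0.05), with the kainate receptor subunit Grik1 at -0.24 ± 0.10 and the metabotropic receptor Grm5 at 0.64 ± 0.31. Grik1 ran from 22.6 to 32.4 CPM in low and from 26.4 to 34.4 CPM in sham libraries. Synaptic vesicle genes had 14 of 24 above 0 (median 0.02) and voltage-gated sodium channel genes 9 of 12 (median 0.03), with the channel subunit Scn4b at 0.29 ± 0.16. Genes of axon and dendrite growth had 19 of 26 above 0 (median 0.07), with the guidance receptor Robo2 at 0.31 ± 0.13 and Plppr1, a phospholipid phosphatase relative of growing neurites, at 0.16 (-0.13 to 0.45). Immediate early genes had 9 of 21 above 0 (median -0.06). Fos, the activity-induced transcription factor, ran from 0.267 to 55.6 CPM in low and from 4.86 to 84.1 CPM in sham libraries (-0.53, interval -2.15 to 1.08). Circadian clock genes had 5 of 14 above 0 (median -0.06), with the output gene Dbp at 0.19 ± 0.16. Without low 6 and sham 1, 15 of 26 growth genes lay above 0 (median 0.05), beside 52.8% of all genes. Glutamate receptor genes then had 10 of 24 above 0 (median -0.04) and immediate early genes 7 of 21 (median -0.14).

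Large housekeeping complexes moved with low 6 and sham 1. Ribosomal protein transcripts lay above 0 for 77 of 80 members (median 0.07), but for 48 of 80 without low 6 and sham 1 (median 0.01). Ribosomal protein values also took part in the choice of libraries. Nuclear-encoded respiratory chain transcripts went with them, with 67 of 72 above 0 (median 0.07) and 38 of 72 without those 2 libraries (median 0.00). Mitochondrial ribosomal transcripts had 52 of 70 above 0 and then 35 of 70, and proteasome transcripts 28 of 30 and then 23 of 30. Rps21, a protein of the small ribosomal subunit, stood at 253 CPM in low 6 and 130 CPM in low 35, against 61.2 to 98.3 CPM in the other low libraries, and at 144 CPM in sham 1, against 57.8 to 92.0 CPM in the other sham libraries.

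Striatal libraries of the same rats were available for 5 low (7, 20, 37, 51 and 53) and 6 sham animals, and edgeR called 0 of 12124 genes there (0%). Of the 24 leading cerebellar genes 19 could be tested in the striatum, all with an adjusted p of 0.861 or more, and 12 of the 19 had the same sign as in the cerebellum. Blnk stood between 11.4 and 15.8 CPM in low and between 6.4 and 10.7 CPM in sham striatum, and every low library lay above every sham library, which held for 0.165% of the striatal genes tested. It had a log2 fold change of 0.56 ± 0.16 (edgeR, unadjusted p 0.00442, adjusted p 0.861). Garem2 stood at 0.44 ± 0.16 (edgeR, unadjusted p 0.0161, adjusted p 0.861). Fzd8 stood at 0.41 ± 0.25 and missed an unadjusted p of 0.05 (edgeR, 0.127). Wnt3 lay opposite in sign to the cerebellum, at 2.18 ± 0.98 (unadjusted p 0.0475, adjusted p 0.861). It ran from 0.486 to 32 CPM in low (median 1.52) and from 0.817 to 3.15 CPM in sham striatum (median 1.13), so that its highest value was far above the median of its group. Csad (-0.12 ± 0.15), Asic2 (-0.13 ± 0.34) and Slc8b1 (0.20 ± 0.13) missed an unadjusted p of 0.05. So did Pnma2 (-0.30 ± 0.18), which also lay opposite in sign to the cerebellum. Rasd2 varied widely between punches, from 249 to 2333 CPM in low (median 1853) and from 142 to 1909 CPM in sham striatum (median 1602). Whether the punches differed in their neurons was not tested. The striatal libraries come from the same animals, and the difference between the regions was not tested.

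The other loadings give the leading genes in more cerebellar libraries, on a CPM scale shared by all 31 libraries and with low 22 and sham 48 left out. The medium and high libraries were not chosen in that way. Ribosomal protein means at or above that of low 22, or granule cell means at or below that of sham 48, were found in medium 24 and 40 and in high 28, 43 and 59, and values are also given without these 5. Asic2 had medians of 65.0, 53.2, 51 and 49.8 CPM over sham, low, medium and high. Without the 5 libraries its high median was 59 CPM (46.1 to 63.0 CPM), above the low and medium medians, and the 3 high libraries left out stood at 22 to 37.6 CPM. Its medium libraries ran from 41.1 to 59.6 CPM with or without them, and sham from 60.9 to 74.0 CPM.

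Blnk had medians of 2.23 CPM in sham, 3.95 in low, 3.97 in medium and 3.19 in high libraries, and of 3.59 in medium and 2.56 in high libraries without the 5. Its medium (2.62 to 7.17 CPM) and high libraries (1.62 to 5.18 CPM) overlapped sham (1.78 to 3.37 CPM). Fzd8 had medians of 1.39, 2.94, 2.06 and 2.28 CPM over sham, low, medium and high, with 1 medium library at 20.9 CPM, and of 1.68 in medium and 2.43 in high libraries without the 5. Csad had medians of 167, 116, 154 and 153 CPM, and of 157 and 120 CPM in medium and high libraries without the 5, so that its high median then lay near the low one. Sypl2 had medians of 3.49, 1.74, 1.94 and 3.25 CPM, and Slc8b1 of 6.32, 8.95, 8.10 and 7.86 CPM. Without the 5 their medians in medium and high libraries were 1.94 and 3.52 CPM for Sypl2 and 8.03 and 6.87 CPM for Slc8b1. These groups are set against the same sham libraries that chose the genes, and no test was made.

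**Figure D5:**
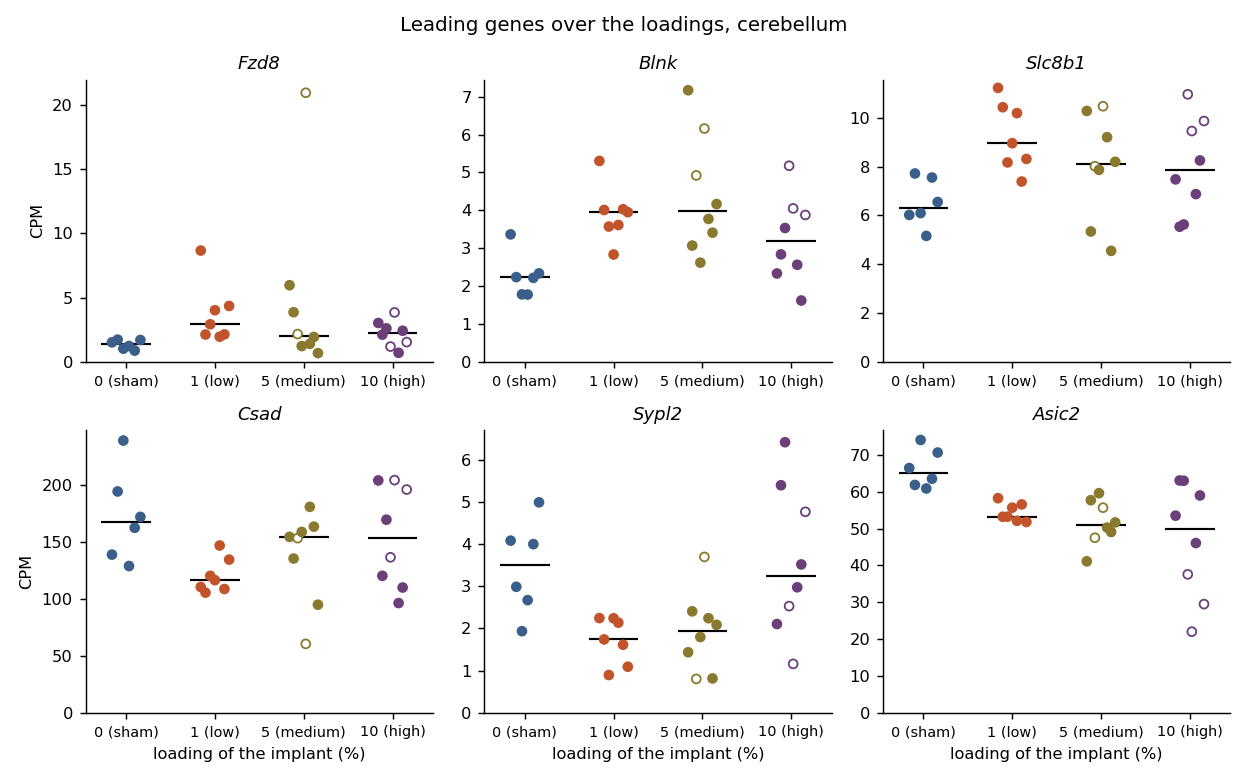
CPM of 6 leading genes by implant loading in the cerebellum, sham (0%), low (1%), medium (5%) and high (10%), 1 point per library, with bars at the medians of all points (n = 6, 7, 8 and 8). CPM is on a scale shared by all 31 cerebellar libraries. Open points are the 5 medium and high libraries set apart by ribosomal protein or granule cell means. The limits were the ribosomal protein mean of low 22 and the granule cell mean of sham 48. Low 22 and sham 48 are not shown. The high median of Asic2 was 49.8 CPM with them and 59 CPM without.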

How the data were processed

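The values were whole-number read counts per gene as the authors deposited them, 1 table per brain region. The submitters' processing notes name FastQC, HISAT2 and rn6. For the counting tool, annotation and strand setting nothing is given in the sources used here, so overlapping or near-identical genes, such as Hbb, are uncertain. Per the labels' protocols, libraries had poly(A) capture or ribosomal RNA removal, with no record of which. The cerebellar table held 14129 genes, of which 14063 had a symbol, and no gene had a total under 10 reads.

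Counts of the 13 libraries were given TMM factors (edgeR's trimmed mean scaling), filtered with filterByExpr (11511 genes left) and tested two-sided in edgeR 4.0.16 (quasi-likelihood, robust), with Benjamini-Hochberg adjustment at 0.05 and R 4.3.3. Confidence intervals are at 95%. Levels are CPM with TMM factors, list means use log2 CPM and a prior count of 2, and errors of fold changes are standard errors. The animal number in the title names a library. Alternatives used other size factors (RLE), DESeq2 1.42.0, limma 3.58.1 (voom with quality weights), other filters, all 8 low and 7 sham or all 31 libraries, and a term for runs of 15 animal numbers, which stand in for cohorts that the labels do not give per rat. Each library was also left out in turn. Leaving out low 6 and sham 1, or these and low 35, a ribosomal protein covariate and values by loading without 5 medium and high libraries were added after seeing the data. The procedure was also run on simulated counts. These were drawn without shifts shared by a whole library, so they do not bear on the effect of low 6 and sham 1.

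The 12 genes of smallest p in each direction, the 3 of smallest p in each of 35 lists and a set of markers and exposure genes could be named, and Dgkg, Penk, Slc30a3, Adora2a, Lamp5, Neurod2 and Neurod6 were named after their values were seen. A leading gene is counted but not reported here. The members and lists were chosen with earlier results of these data known.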

Additional observations from a re-analysis of the deposited data

Results flagged for a closer look

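A value was looked at again when 1 library lay far from the rest of its group by Dixon's test, in which chance alone marks about 1 in 20 groups. Of 118 groups of values tested, 17 were marked, 15 of them by low 6 or sham 1. The marked values were of leading genes and list means. Such values share libraries, and some lists share members, so the marks are not independent and their number cannot be set against 1 in 20. The granule cell list, marked in both groups, also helped to choose the libraries. In low 6 the genes were Fzd8 (9.28 CPM) and Pi16 (8.08 CPM). The list means of low 6 that lay apart from the other low libraries were lower for granule cells (8.12 log2 CPM), the circadian clock (5.79), calcium store channels and pumps (6.52) and synaptic vesicle release (7.58). They were higher for forebrain neurons (3.48), thyroid hormone transport and response (5.08), the proteasome (7.28), the respiratory chain (7.66) and mitochondrial ribosomal proteins (5.61). The forebrain and thyroid hormone lists share Nrgn, at 498 CPM in low 6 and at most 9.41 CPM in the other low libraries. These list means are thus not separate observations, and the part of Nrgn in them was not worked out. In sham 1 the list means were lower for granule cells (8.61 log2 CPM) and voltage-gated sodium channels (6.01) and higher for NRF2 and antioxidant (5.95) and sterol synthesis genes (5.85). The others were Mybpc3 in sham 34 (7.24 CPM) and the thyroid hormone list in sham 32 (5.07 log2 CPM). What sets these libraries apart was not tested.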

How the results depend on the processing

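Under each of the 25 alternatives 0 genes were called higher and 0 lower. DESeq2 and limma-voom were 1 alternative each, and the other 23 used edgeR. Genes at an unadjusted p under 0.05 numbered 76 higher and 51 lower. They numbered 75 and 53 with RLE size factors, 176 and 96 with no filter, 92 and 63 at a mean CPM of at least 1, 84 and 61 with all 8 low and 7 sham libraries, 58 and 20 with all 31 libraries in the fit, 111 and 74 with a term for the run of 15 animal numbers and 113 and 65 in the runs with both groups. Leaving out 1 library at a time gave 45 to 229 higher and 33 to 235 lower, with smallest adjusted p from 0.849 to 1.00. Low 6 (229 and 120 without it) and sham 1 (215 and 235) moved these counts the most, and sham 34 (45 and 35) and sham 32 (66 and 33) moved 1 of them by over 1.5 times. Without low 6, low 35 and sham 1 they were 451 and 373 (smallest adjusted p 0.677), and with the ribosomal protein covariate 230 and 299 (0.628, for Incenp). Of 121 other named genes, 44 changed sign under at least 1 alternative. No paired analysis was possible because low and sham libraries come from different rats that share no number. Low counts limit genes of a few CPM.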
